A study of Mus musculus with 12 samples.

Results

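Immunoglobulin light-chain variable (V) gene transcripts were measured by RNA-seq in epididymal white adipose tissue (eWAT) of 12 male mice fed a high-fat diet (HFD) with 60% fat for 12 weeks. The mice were Mir181a2b2 flox/flox (flox) or lacked the Mir181a2b2 locus in all tissues (Mir181a2b2-/-, KO), and were injected i.p. each week with vehicle or with methotrexate (MTX) at 1 mg/kg. With 3 mice in each of the 4 groups, these are called flox vehicle, KO vehicle, flox MTX and KO MTX, and a library is named by its group and replicate number. No recombinase is named for the flox mice, so the genotypes differ by a whole-body deletion and not by one restricted to B cells. The deposited table was searched for genes whose symbol starts with Igkv (kappa) or Iglv (lambda), and the 83 genes with at least 20 counts over the 12 libraries were kept, of 163 such rows and 49315 genes in the table. They comprised 80 kappa genes in 16 subgroups and 3 lambda genes, of which 82 are annotated as functional V genes and 1 as a pseudogene. Of the rows that were not kept, 45 had no count, and the rest together held 213 counts, 0.308% of all light-chain V counts. The genes just inside the limit were Igkv9-129 with 21 counts, Igkv4-51 with 27 and Igkv9-123 with 29, and just outside it were Igkv8-18 and Igkv12-38 with 19 each and Igkv11-125 with 16. The genes were selected on their total counts, so their abundance over all libraries is a description.

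An antibody consists of heavy and light chains, and each light chain is either kappa or lambda. In a developing B cell, recombination joins 1 V gene to a joining (J) gene, and the joined exon is spliced to a constant gene, so most V gene RNA in a tissue comes from B cells and above all from plasma cells, which fill their cytoplasm with antibody RNA. Each B cell clone keeps the V gene it chose, and a V gene that dominates a library can therefore come from many clones or from 1 large clone. Mice use kappa far more than lambda. Visceral fat holds B cells, among them B-1 cells that make natural antibody without T cell help.

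All kappa genes lie on chromosome 6 and the lambda genes on chromosome 16 of GRCm38. Of the 80 kappa genes, 48 are on the minus strand and 32 on the plus strand, and their exons span 338 to 501 bases (median 366). The following germline ends of the coding part, from GENCODE M21 transcripts, belong to the genes that came first in at least 1 library, and to Iglv1, the most used lambda gene. The capitals start at the last cysteine codon in frame, which opens the germline share of the third complementarity-determining region, a loop that contacts antigen.
Igkv3-4 (chr6:70671788-70672377, plus strand): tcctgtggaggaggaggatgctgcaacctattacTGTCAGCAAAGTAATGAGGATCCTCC
Igkv14-126 (chr6:67896172-67896642, plus strand): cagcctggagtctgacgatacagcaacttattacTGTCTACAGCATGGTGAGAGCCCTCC
Igkv1-110 (chr6:68270485-68271267, plus strand): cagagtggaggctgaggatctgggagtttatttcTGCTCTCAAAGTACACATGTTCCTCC
Igkv19-93 (chr6:68736297-68736780, minus strand): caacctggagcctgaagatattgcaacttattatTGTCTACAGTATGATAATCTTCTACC
Igkv3-1 (chr6:70703578-70704177, plus strand): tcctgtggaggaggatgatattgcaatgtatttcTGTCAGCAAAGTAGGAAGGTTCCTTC
Igkv3-2 (chr6:70698449-70699067, plus strand): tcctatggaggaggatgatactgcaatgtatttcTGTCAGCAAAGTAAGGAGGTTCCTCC
Iglv1 (chr16:19085017-19085500, minus strand): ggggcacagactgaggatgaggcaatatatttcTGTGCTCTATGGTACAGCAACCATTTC

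Some V genes are near-copies of each other, which limits how well short reads can be assigned. Iglv2 (chr16:19260401-19260859, minus strand) was 96.9% identical to Iglv1 over the coding part, with a longest shared run of 104 bases. In the last 300 coding bases below, the capitals in Iglv2 mark the 8 bases that differ from Iglv1.
Iglv1: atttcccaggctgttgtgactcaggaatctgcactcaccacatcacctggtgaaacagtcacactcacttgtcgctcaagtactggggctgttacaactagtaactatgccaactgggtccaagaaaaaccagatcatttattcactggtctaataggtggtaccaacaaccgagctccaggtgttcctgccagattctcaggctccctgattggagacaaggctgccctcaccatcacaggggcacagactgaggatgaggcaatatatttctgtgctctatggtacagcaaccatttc
Iglv2: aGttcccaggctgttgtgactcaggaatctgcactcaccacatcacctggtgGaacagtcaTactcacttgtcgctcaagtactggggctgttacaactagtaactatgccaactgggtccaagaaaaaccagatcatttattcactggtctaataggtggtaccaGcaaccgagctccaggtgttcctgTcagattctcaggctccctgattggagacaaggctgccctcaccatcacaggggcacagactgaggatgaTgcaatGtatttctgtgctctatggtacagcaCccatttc
Igkv1-117 (chr6:68121046-68121827, plus strand) was 97.2% identical to Igkv1-110, with a longest shared run of 142 bases, and the capitals in Igkv1-117 mark the 10 bases that differ.
Igkv1-110: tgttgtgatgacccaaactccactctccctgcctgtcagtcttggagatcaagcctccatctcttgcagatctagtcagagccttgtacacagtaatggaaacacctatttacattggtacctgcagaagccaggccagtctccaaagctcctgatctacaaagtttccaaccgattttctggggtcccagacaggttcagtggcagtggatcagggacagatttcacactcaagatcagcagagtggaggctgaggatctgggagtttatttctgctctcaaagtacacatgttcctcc
Igkv1-117: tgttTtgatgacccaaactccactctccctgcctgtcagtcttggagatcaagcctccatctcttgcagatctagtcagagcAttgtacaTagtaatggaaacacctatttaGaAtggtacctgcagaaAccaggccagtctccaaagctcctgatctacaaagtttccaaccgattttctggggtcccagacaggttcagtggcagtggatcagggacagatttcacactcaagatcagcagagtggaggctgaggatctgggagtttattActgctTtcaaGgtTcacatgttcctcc
Within the Igkv3 subgroup the genes were further apart, with 91.4% identity between Igkv3-4 and Igkv3-2, 92.8% between Igkv3-1 and Igkv3-2 and 90.5% between Igkv3-1 and Igkv3-4. In 45 of the 83 genes every window of 100 bases was unique among annotated light-chain V transcripts, and in 1 gene, Igkv6-20, under 50% of the windows were. Transcripts of other genes were not searched. The labels give reads of 150 bases and the methods reads of 100. Where Iglv1 is set against Iglv2, or Igkv1-110 against Igkv1-117, or counts of other such pairs, the split of shared reads is uncertain.

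Depth was 19495310 to 23976469 counts per library. Light-chain V counts were a small part of it and differed widely, with 181 to 2409 counts in the flox vehicle libraries, 513 to 1005 in KO vehicle, 2465 to 44010 in flox MTX and 2161 to 6984 in KO MTX. Flox MTX replicate 2 alone held 63.9% of all light-chain V counts. Without that library 77 of the 83 genes would still reach 20 counts. The 10 adipocyte markers summed to 10540 to 73640 CPM (counts scaled to a common library size) over the 12 libraries, so the labelled tissue was seen in all of them. Markers of epididymis, which lies against this fat pad, summed to 1461 to 11760 CPM in the flox vehicle libraries, against 1.09 to 478 in the other 9.

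With TMM factors, the summed level of the 83 genes was higher in every flox MTX library than in every flox vehicle library. It was also higher in every KO MTX library than in every KO vehicle library. In CPM scaled with TMM factors, it was 105, 7.12 and 61.5 in flox vehicle replicates 1, 3 and 4, and 25.8, 42.6 and 31.1 in KO vehicle replicates 1, 2 and 3. It was 116, 2000 and 300.2 in flox MTX replicates 1, 2 and 4, and 103, 303 and 94.4 in KO MTX replicates 2, 3 and 4. On this scale the MTX libraries of each genotype lay above all vehicle libraries of that genotype, with a narrow gap in flox mice between 105 and 116. Scaled by library size alone, the flox groups overlapped, with flox vehicle replicate 1 at 107 CPM and flox MTX replicate 1 at 103. The KO groups stayed apart on that scale, at 26.1 to 45.8 CPM with vehicle and 95.5 to 322 with MTX. The group means were 57.7 ± 48.8 in flox vehicle, 33.2 ± 8.55 in KO vehicle, 806 ± 1039 in flox MTX and 167 ± 118 in KO MTX (SD, n = 3). The flox vehicle mean without replicate 3 was 83.0, and the flox MTX mean without replicate 2 was 208. The vehicle groups overlapped with each other, as did the MTX groups. In a tissue sample, more cells of a type and more RNA per cell cannot be told apart.

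**Figure D1:**
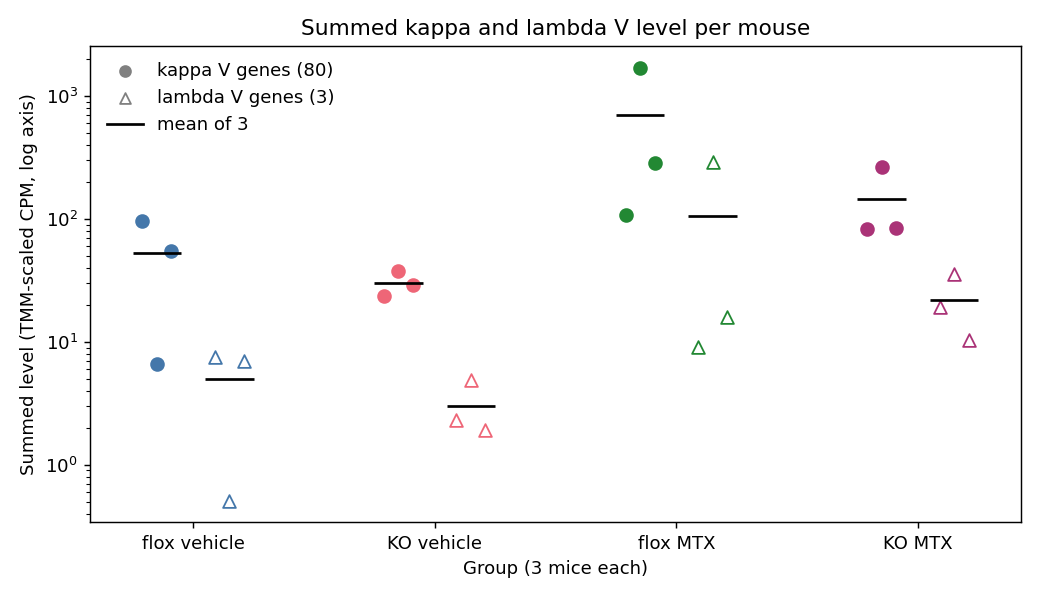
Summed level of the 80 kappa genes (filled circles) and the 3 lambda genes (open triangles) in each of the 12 mice by group, in TMM-scaled CPM on a log axis; bars are means of 3 mice. Flox MTX replicate 2 stands at the top of both, at 1707 CPM for kappa and 293 CPM for lambda, and flox vehicle replicate 3 at the bottom, at 6.61 and 0.511 CPM.

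Kappa transcripts dominated in every library. Lambda genes took 7.18%, 7.18% and 11.3% of light-chain V counts in flox vehicle replicates 1, 3 and 4, and 8.97%, 11.4% and 6.18% in KO vehicle replicates 1, 2 and 3. The lambda share was 7.83%, 14.7% and 5.35% in flox MTX replicates 1, 2 and 4, and 18.8%, 11.8% and 10.9% in KO MTX replicates 2, 3 and 4. The KO MTX libraries were thus among the higher ones, but they overlapped with each of the other groups. Counting error gave 95% Wilson intervals of 4.25% to 11.9% at the lowest depth, in flox vehicle replicate 3, and of 14.3% to 15% at the highest, in flox MTX replicate 2. These intervals cover counting error only, since reads without molecular identifiers are not independent molecules. Group means were 8.56% ± 2.39 in flox vehicle, 8.87% ± 2.63 in KO vehicle, 9.28% ± 4.82 in flox MTX and 13.8% ± 4.31 in KO MTX (SD, n = 3).

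The lambda share can also be read from the constant genes, as Iglc1, Iglc2, Iglc3 and Iglc4 counts over those plus Igkc, the only kappa constant gene. It was then 5.87% to 11.6% in flox vehicle, 8.10% to 12.1% in KO vehicle, 4.20% to 10.4% in flox MTX and 10.1% to 14.9% in KO MTX. V genes gave the higher share in 8 of 12 libraries, and the intervals of both readings did not overlap in 5 libraries, all of them among the 6 MTX libraries. The intervals narrow with depth, and V counts were 181 to 2409 in the vehicle and 2161 to 44010 in the MTX libraries. In flox vehicle replicate 3 and KO vehicle replicate 3 the V share was lower by 3.15 and 1.92 percentage points, with overlapping intervals. In flox MTX replicate 4 a gap of 1.16 points stood apart. The widest gaps were 4.26 percentage points in flox MTX replicate 2 and 3.86 in KO MTX replicate 2. The highest library by either reading was KO MTX replicate 2.

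**Figure D2:**
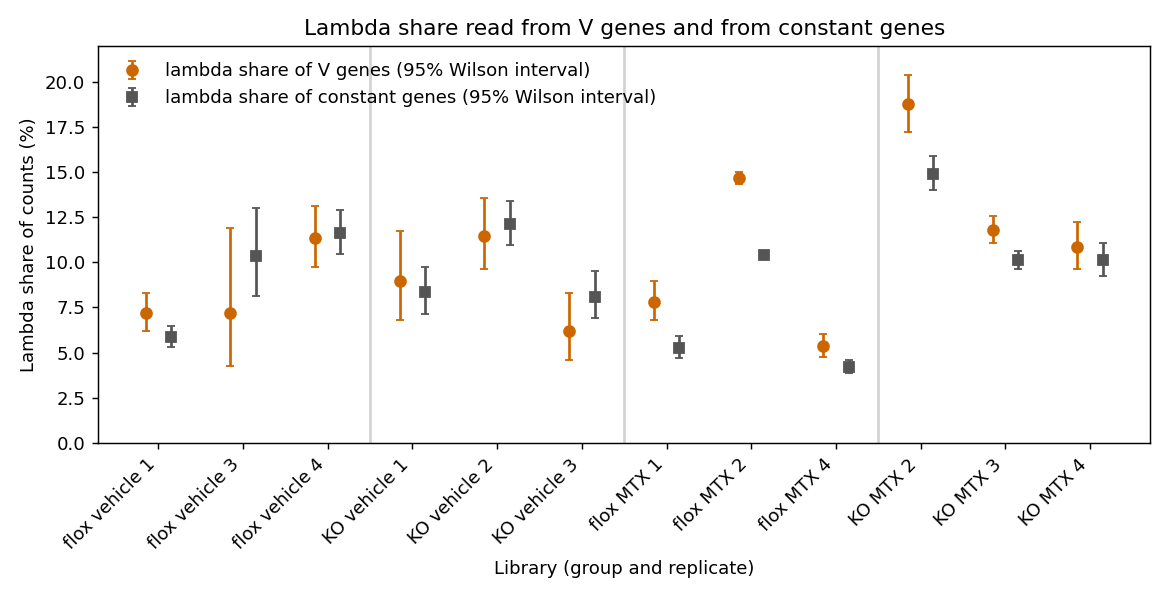
Lambda share (%) of light-chain V counts (circles) and of light-chain constant counts (squares) in each of the 12 libraries, with 95% Wilson intervals. Both readings were highest in KO MTX replicate 2, at 18.8% and 14.9%, and lowest in flox MTX replicate 4, at 5.35% and 4.20%.

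Iglv1, which joins to the J gene ahead of Iglc1 or Iglc3, carried most lambda V counts in 11 libraries. Its part of lambda V counts was 61.9%, 23.1% and 76.8% in flox vehicle, 60.9%, 54.8% and 90.2% in KO vehicle, 76.7%, 58.4% and 67.3% in flox MTX and 95%, 71.6% and 79.1% in KO MTX, in the order of replicates above. The exception was flox vehicle replicate 3, where lambda genes had 13 counts in all and Iglv2 10 of them. Iglv2, which joins mainly to the J gene ahead of Iglc2, reached 39.2% of lambda V counts in flox MTX replicate 2 (2530 counts). In KO MTX replicate 2, where Iglv1 had 422 counts and Iglv2 15, Iglc1 had 736 counts and Iglc2 61, so V and constant counts both leaned to the Iglv1 side. Iglv3 ranged from 0 to 153 counts and from 0 to 22% of lambda V counts, with the top value in flox vehicle replicate 1. Flox vehicle replicate 3 and KO vehicle replicate 3 had no Iglv3 count, of 13 and 41 lambda V counts.

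No V gene led everywhere, and 6 different genes came first in at least 1 of the 12 libraries. Usage is given here as a gene's share of the light-chain V counts of its library. The same gene came first in all 12 libraries when counts were divided by exon length, where the share of the first gene was 8.40% to 33.7%, against 8.16% to 32.7% by counts. Igkv3-4 led flox vehicle replicates 1 and 3 and KO vehicle replicate 1. Igkv14-126 led flox vehicle replicate 4 and KO vehicle replicates 2 and 3, so these genes between them led all 6 vehicle libraries. Igkv1-110 led flox MTX replicates 1 and 2 and KO MTX replicate 4. Igkv19-93 led flox MTX replicate 4, Igkv3-1 led KO MTX replicate 2 and Igkv3-2 led KO MTX replicate 3.

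**Figure D3:**
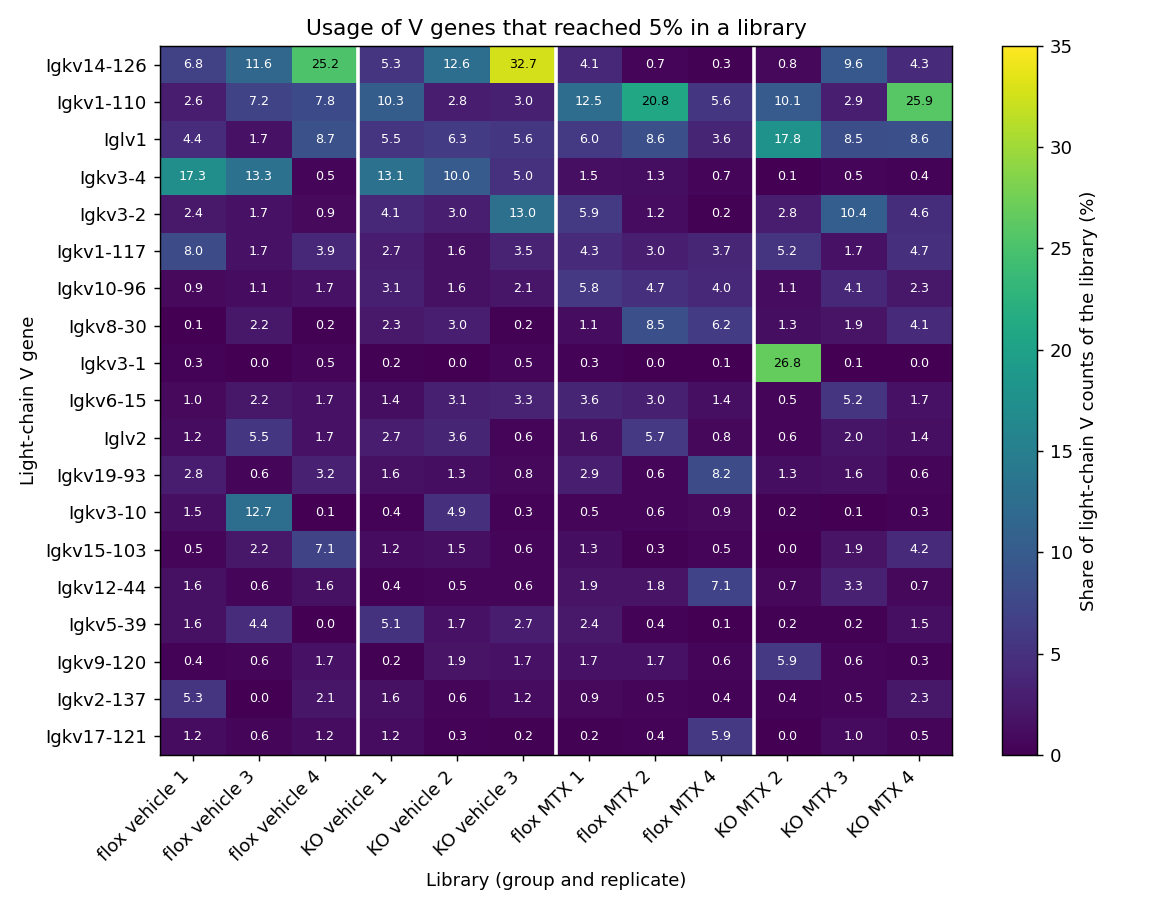
Share (%) of the light-chain V counts of each library taken by the 19 V genes that reached 5% in at least 1 library, with genes as rows, the 12 libraries as columns and white lines between groups. Igkv14-126 is highest in KO vehicle replicate 3, at 32.7%, Igkv3-4 in flox vehicle replicate 1, at 17.3%, Igkv1-110 in KO MTX replicate 4, at 25.9%, and Igkv3-1 in KO MTX replicate 2, at 26.8%.

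Igkv3-4 usage was 17.3%, 13.3% and 0.525% in the flox vehicle libraries and 13.1%, 10.05% and 4.98% in the KO vehicle libraries. It was 1.5%, 1.34% and 0.667% in flox MTX and 0.0846%, 0.458% and 0.370% in KO MTX. Flox vehicle replicate 4 was the only vehicle library within the MTX range, and the KO groups did not overlap. In TMM-scaled CPM the gene stood at 18.1, 0.944 and 0.323 in flox vehicle, 3.38, 4.28 and 1.55 in KO vehicle, 1.75, 26.9 and 2.00 in flox MTX and 0.0870, 1.39 and 0.350 in KO MTX. It was 1 of 5 tested genes with a negative log2 fold change for MTX in KO mice, at -2.33 (SE 1.53), which did not pass the test (adjusted p = 0.7576, edgeR).

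Igkv14-126 usage was 6.81%, 11.6% and 25.2% in flox vehicle and 5.26%, 12.6% and 32.7% in KO vehicle. It was 4.06%, 0.652% and 0.271% in flox MTX and 0.761%, 9.62% and 4.26% in KO MTX. Flox vehicle therefore lay above flox MTX in each library, whereas the KO groups overlapped. Its CPM was 7.12, 0.826 and 15.5 in flox vehicle, 1.36, 5.38 and 10.2 in KO vehicle, 4.72, 13.0 and 0.813 in flox MTX and 0.783, 29.1 and 4.02 in KO MTX, so the level itself overlapped between all groups. It was the only tested gene with a negative log2 fold change in flox MTX against flox vehicle, at -0.32 (SE 1.29, adjusted p = 0.8806, edgeR). Igkv14-126 is known as the light-chain partner of the heavy-chain gene Ighv11-2 in B-1 cells that bind phosphatidylcholine, a lipid of cell membranes. Ighv11-2 was the first heavy-chain V gene in 4 libraries, with 34.8% of heavy-chain V counts in flox vehicle replicate 4, 14.8% and 31.7% in KO vehicle replicates 2 and 3 and 11.8% in KO MTX replicate 3. In the other 8 it held 0.239% to 7.74% of the counts over 78 heavy-chain V genes, and Igkv14-126 led or came second in the same 4 libraries. The pairing of chains within a cell was not measured.

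Igkv1-110, the gene with the most counts per kilobase over all libraries, was used at 2.62%, 7.18% and 7.80% in flox vehicle and 10.3%, 2.79% and 3.02% in KO vehicle. It reached 12.5%, 20.8% and 5.58% in flox MTX and 10.1%, 2.94% and 25.9% in KO MTX. Both MTX groups overlapped with the vehicle group of their genotype. Its near-copy Igkv1-117 stayed between 1.59% and 7.97% of the counts in all 12 libraries.

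Igkv3-1 and Igkv19-93 were each high in 1 mouse. Of 683 Igkv3-1 counts, 633 came from KO MTX replicate 2, where it took 26.8% (95% interval 25% to 28.6%), and in the other 11 libraries it took 0 to 0.453%. In the same library Ighv10-3 took 41.2% of heavy-chain V counts. Igkv19-93 took 8.16% in flox MTX replicate 4 and 0.553% to 3.15% elsewhere. Igkv3-2 was less concentrated, with 13.0% in KO vehicle replicate 3, 10.4% in KO MTX replicate 3 and 0.208% to 5.92% in the others. The pseudogene, Igkv2-116 (chr6:68151885-68152617, plus strand), had all of its 30 counts in flox MTX replicate 1, which is 1.22% of the V counts there.

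Of the 83 genes, 19 reached 5% of usage in some library, 11 of them in 1 library and 8 in 2 or more. Iglv1 reached it in 9 libraries, Igkv1-110 in 8 and Igkv14-126 in 7. Iglv1 was among the 3 most used genes in 9 libraries by counts and in 7 per kilobase. At the other end, 24 genes had a count in every library.

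By subgroup, Igkv3 (8 genes) took 24.0%, 28.2% and 4.80% in flox vehicle, 25%, 19.3% and 19.3% in KO vehicle, 9.21%, 6.96% and 3.98% in flox MTX and 31%, 13.1% and 6.25% in KO MTX. KO vehicle lay above flox MTX, and the other pairs of groups overlapped. Igkv4, the subgroup with the most genes (20), took 3.0% to 13.7% of a library. Igkv10 (3 genes) took 5.54% to 6.73% in flox MTX, above flox vehicle at 1.88% to 3.94% and KO vehicle at 1.99% to 3.51%, and KO MTX overlapped at 1.56% to 6.24%. Igkv6 (8 genes) took 9.66% to 12.1% in flox MTX against 3.08% to 7.22% in flox vehicle, and Igkv8 (7 genes) 7.18% to 13.6% against 2.93% to 4.97%. For Igkv6, KO vehicle lay below flox MTX at 3.70% to 8.06%, and KO MTX overlapped with it at 6.62% to 11.7%. For Igkv8, KO vehicle at 3.62% to 9.45% and KO MTX at 3.55% to 8.24% both overlapped with flox MTX.

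Dominance varied between the mice of every group. The effective number of V genes, which is the number of equally used genes that would give the same Shannon entropy, was 31.8, 23.2 and 23.7 in flox vehicle and 30.3, 36.4 and 16.9 in KO vehicle. It was 39.7, 27.5 and 37.4 in flox MTX and 17.0, 36.6 and 26.8 in KO MTX. Group means were 26.2 ± 4.82, 27.9 ± 9.95, 34.8 ± 6.48 and 26.8 ± 9.82 (SD, n = 3), and every pair of groups overlapped. The least diverse libraries were KO vehicle replicate 3, where 3 genes held 51.3% of the counts, and KO MTX replicate 2, where 3 genes held 54.7%. In flox MTX replicates 1 and 4, by contrast, 10 genes were needed to reach 50%.

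**Figure D4:**
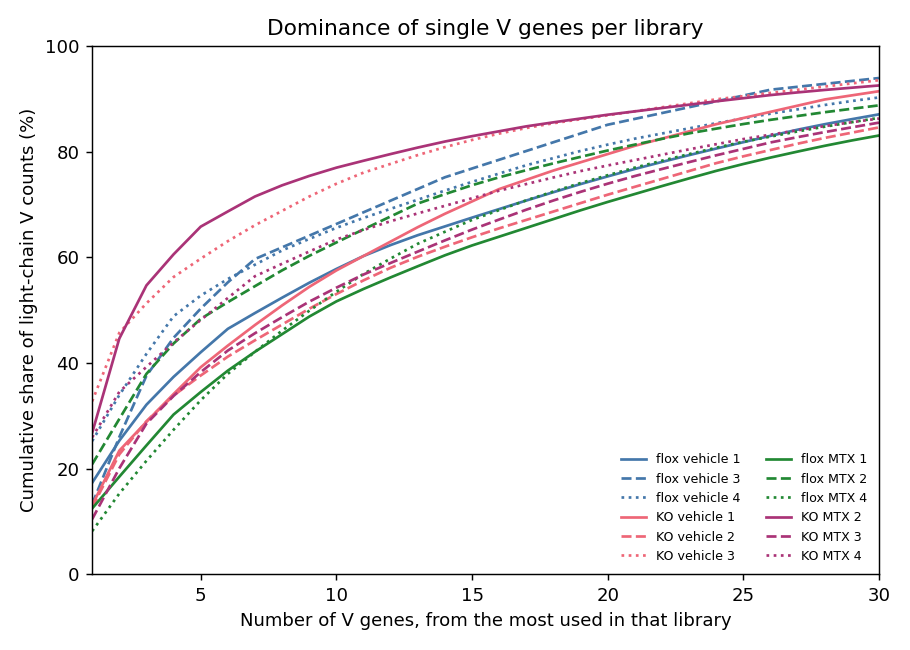
Cumulative share (%) of light-chain V counts against the number of V genes, counted from the most used in that library, with 1 curve for each of the 12 libraries and colours for groups. KO vehicle replicate 3 and KO MTX replicate 2 run above the rest from the second gene to the tenth, where they reach 73.9% and 77.0%, and flox MTX replicate 1 is lowest from there on, at 51.6% for 10 genes.

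The number of V genes seen depends on depth, from 41 in flox vehicle replicate 3 with 181 V counts to 82 in flox MTX replicate 2 with 44010. In an equal draw of 181 counts the expected number was 41.0 to 44.5 in flox vehicle, 36.7 to 48.1 in KO vehicle, 42.0 to 49.4 in flox MTX and 35.8 to 46.7 in KO MTX. Flox MTX replicate 2 thus had by far the most RNA of these genes without a flatter use of them. Of the 83 genes, 63 had their highest CPM in that library, and 8 had their highest usage there.

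Libraries of the same group were not clearly more alike in usage than libraries of other groups. The Morisita-Horn index, which is 0 for no shared usage and 1 for the same usage, was 0.333 to 0.772 (median 0.558) over 12 pairs of the same group and 0.144 to 0.906 (median 0.458) over 54 other pairs. The most alike were flox MTX replicate 2 and KO MTX replicate 4, at 0.906, which both had Igkv1-110 first and Iglv1 second. They were followed by flox vehicle replicate 4 and KO vehicle replicate 3, at 0.849, which share Igkv14-126 as the first gene.

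Kappa genes on the minus strand lie opposite to the J genes and rearrange by inversion. They took 31% to 35.8% of kappa counts in flox vehicle, 27.3% to 45.2% in KO vehicle, 48.5% to 62.7% in flox MTX and 23.6% to 57.0% in KO MTX. Flox MTX lay above both vehicle groups, and KO MTX overlapped with all. The distance from Igkj1 at which the cumulative kappa count reached its midpoint ranged from 605 kb in KO MTX replicate 2 to 2451 kb in flox vehicle replicate 4, with no pair of groups apart.

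The ratio of light-chain to heavy-chain V counts set the KO vehicle group apart. It was 4.20, 3.90 and 3.66 in KO vehicle replicates 1, 2 and 3, on 122, 258 and 181 heavy-chain V counts, and 1.18 to 2.69 in the other 9 libraries. Kappa V counts were 0.295 to 0.517 of Igkc counts in all libraries. KO vehicle, at 0.295 to 0.397, overlapped with flox vehicle at 0.307 to 0.507. It lay narrowly below flox MTX at 0.406 to 0.501 and KO MTX at 0.404 to 0.517.

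Differences were tested with edgeR's quasi-likelihood test on the whole table, where 62 of the 83 genes passed the filter on low counts among 18702 genes. Genes were called where the p adjusted after Benjamini and Hochberg was under 0.1 and the levels differed 1.5-fold or more. Since a gene that is high in 1 group can pass the filter through that group, the counts below describe the genes tested and not all 83.

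In flox mice, MTX went with higher levels of many light-chain V genes. Of the 62 genes tested, 35 were called higher in flox MTX than in flox vehicle and 0 lower, where 8.09% of all genes tested were called higher and 16.1% lower. The median log2 fold change of the 62 genes was 3.77, against 0.05 for all genes tested, and 26 of them did not overlap between the groups and were higher in flox MTX, against 10.9% of all genes, while 0 were lower without overlap (17.5%). Without flox MTX replicate 2, 21 of 63 were called higher, against 6.42% of all genes, with a median of 2.20, and 34 of the 35 genes kept a positive difference. Without flox vehicle replicate 3, which had the lowest V level and the highest level of epididymis markers, 15 of 69 were called higher, against 2.03% of all genes, and the median log2 fold change was 3.13.

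The 3 called genes with the largest change and no overlap were Igkv6-13 (chr6:70457501-70458036), Igkv8-30 (chr6:70117061-70117620) and Igkv4-79 (chr6:69042972-69043505), all on the minus strand. Igkv6-13 stood at 0, 0 and 0.0462 CPM in flox vehicle and at 1.28, 54.9 and 2.56 in flox MTX. Its group totals were 1 count in flox vehicle and 1275 in flox MTX (edgeR log2 fold change 9.94, SE 1.88, adjusted p = 0.007379). Scaled by the TMM-adjusted library sizes, the ratio was 1511 with a 95% interval of 270.7 to 59736. The interval covers counting error only and not the spread between mice. Flox MTX replicate 2 held 1207 of the 1275 counts, and without it the ratio was 128 and the log2 fold change 6.58 (adjusted p = 0.0174). Igkv8-30 stood at 0.130, 0.157 and 0.139 CPM in flox vehicle and at 1.32, 171 and 18.6 in flox MTX, each library above all flox vehicle libraries (log2 fold change 8.75, SE 1.76, adjusted p = 0.009163), and without flox MTX replicate 2 the log2 fold change was 6.08 (adjusted p = 0.0234). Igkv4-79 had no count in flox vehicle and 0.0945, 1.00 and 3.94 CPM in flox MTX (adjusted p = 0.02738, edgeR). The limit of 3 counts taken over the flox vehicle group gave a bound of 34.4-fold, and the 95% counting interval began lower, at 27.4-fold. This gene's groups are apart only as listed, since 0.0945 CPM is 2 counts and lies under the limit of a library with no count. The bound was 13.0-fold without flox MTX replicate 4, which held 63 of the 87 counts. With no count seen, the upper limit is 3 counts, or 0.118 to 0.188 CPM depending on the library.

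Among the most used genes, the changes in flox mice were unequal. Igkv1-110 rose from 2.73, 0.511 and 4.80 CPM in flox vehicle to 14.5, 416 and 16.8 in flox MTX (log2 fold change 5.81, SE 1.36, adjusted p = 0.01595), and without flox MTX replicate 2 the log2 fold change was 2.56 (adjusted p = 0.0453). Igkv10-96 rose from 0.955, 0.0787 and 1.06 CPM to 6.80, 93.3 and 12.1 (log2 fold change 5.75, SE 1.28, adjusted p = 0.01328), and the log2 fold change was 3.77 without flox MTX replicate 2 (adjusted p = 0.038). Igkv6-15 rose from 0.998, 0.157 and 1.02 CPM to 4.16, 60.5 and 4.31 (log2 fold change 5.0, adjusted p = 0.03838), which was 2.56 without flox MTX replicate 2 (adjusted p = 0.148) and 4.51 without flox vehicle replicate 3 (adjusted p = 0.143). In all 3 of these genes each flox MTX library lay above each flox vehicle library. Igkv19-93 rose from 2.95, 0.0393 and 1.94 CPM to 3.35, 12.9 and 24.5 (log2 fold change 3.05, adjusted p = 0.07149), and was not called without flox vehicle replicate 3, flox vehicle replicate 4 or flox MTX replicate 4 (adjusted p = 0.144, 0.102 and 0.179). Igkv1-117 was called as well, at a log2 fold change of 2.81 (adjusted p = 0.08965), but its groups overlapped and the call was lost in 12 of 18 alternatives. Igkv6-17, Igkv3-2 and Igkv3-4 had log2 fold changes of 3.53, 3.32 and 0.67 and were not called.

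Both major lambda genes were among those called in flox mice. Iglv1 stood at 4.64, 0.118 and 5.36 CPM in flox vehicle and at 6.99, 171 and 10.8 in flox MTX (log2 fold change 4.23, SE 1.29, adjusted p = 0.04228). Iglv2 stood at 1.22, 0.393 and 1.06 CPM and at 1.84, 115 and 2.31 (log2 fold change 5.48, SE 1.61, adjusted p = 0.03684). The groups did not overlap in either gene, but without flox MTX replicate 2 the log2 fold changes were 1.41 and 1.23 and neither was called (adjusted p = 0.279 and 0.367). Without flox vehicle replicate 3 neither was called either, at log2 fold changes of 3.66 and 5.12 (adjusted p = 0.117 and 0.141). Iglv3 was not called, at a log2 fold change of 2.21 (adjusted p = 0.2883).

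By subgroup, 4 of 4 Igkv1 genes tested, 5 of 6 Igkv8 genes, 4 of 7 Igkv6 genes, 7 of 15 Igkv4 genes and 1 of 6 Igkv3 genes were called higher in flox MTX. Of the 31 genes tested whose 100-base windows were all unique, 16 were called, and of the other 31, 19 were called.

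In KO mice, 0 of the 62 genes were called in KO MTX against KO vehicle, where 0% of all genes were called. The V genes leaned upward, with a median log2 fold change of 2.5 against -0.01 for all genes, and 57 of 62 values were positive. At an unadjusted p below 0.05 there were 15 genes, all higher (3.42% of all genes were higher and 4.56% lower at that limit). DESeq2 called 3 of 83, all higher, where it called 0.267% of all genes with an adjusted p higher and 1.12% lower. In 20 genes the groups did not overlap and KO MTX was higher (11.1% of all genes), and in 1, Igkv3-4, it was lower (9.55% of all genes). Igkv1-110 stood at 2.67, 1.19 and 0.937 CPM in KO vehicle and at 10.4, 8.88 and 24.5 in KO MTX, without overlap (log2 fold change 3.20, SE 1.28, adjusted p = 0.556). Iglv1 stood at 1.41, 2.67 and 1.73 CPM and at 18.4, 25.6 and 8.13, also without overlap (log2 fold change 3.15, SE 1.27, adjusted p = 0.556).

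Genotype made no called difference to these genes. Under vehicle, 0 of 62 genes were called in KO against flox, where 31.7% of all genes were called. At an unadjusted p below 0.05 there were 0 as well (18.6% of all genes were higher and 22.4% lower at that limit). With only the 6 vehicle libraries in the fit, 22 light-chain V genes passed the filter and 0 were called, against 33.1% of all genes. Most of the 62 were thus too low in the vehicle libraries alone to be tested, which limits what a count of 0 can show. The groups did not overlap in 1 gene, Igkv12-46, which was lower in KO at a log2 fold change of -2.0 (25.3% of all genes were lower without overlap and 22.8% higher). Its gap was very narrow, between 0.353 CPM in KO vehicle replicate 1 (7 counts) and 0.354 in flox vehicle replicate 3 (9 counts). The median of the 62 genes was -0.51, with 19 positive and 43 negative values, and the smallest adjusted p was 0.1627. DESeq2 called 5 of 83 genes, 4 of them lower in KO, against 29.6% of all genes with an adjusted p. Without flox vehicle replicate 3 edgeR called 5 of 69, all lower in KO, against 25.4% of all genes. Under MTX, 0 of 62 were called in KO against flox, where 0% of all genes were called. The median was -2.36, with 57 of 62 values negative. At an unadjusted p below 0.05 there were 28 genes, all lower in KO MTX, against 12.9% of all genes lower and 11.5% higher, and 8 genes did not overlap and were lower (12.1% of all genes, with 14.7% higher). Flox MTX replicate 2 carried much of this: without it the median was -0.68, 4 genes had an unadjusted p below 0.05 and 1 of 63 was called, while the share called of all genes went from 0% to 20.8%. Without flox vehicle replicate 3, 3 of 69 were called, against 5.4% of all genes. With all libraries DESeq2 called 16 of 83, all lower in KO MTX, where it called 16.6% of all genes with an adjusted p in either direction and 8.73% lower.

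The largest of these differences was that of Igkv6-13, at 1.28, 54.9 and 2.56 CPM in flox MTX and 0.435, 1.08 and 0.918 in KO MTX (log2 fold change -4.58, SE 1.26, adjusted p = 0.1074). Igkv13-85, named here after its values were seen, had the smallest adjusted p, with 0.803, 4.27 and 1.5 CPM in flox MTX and 0.0870, 0.347 and 0.131 in KO MTX (log2 fold change -3.51, adjusted p = 0.1042).

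The interaction of genotype and MTX was called in 0 of 62 genes, where 0.989% of all genes were called, 0.898% positive and 0.0909% negative. The median was -1.80, and 9 genes had an unadjusted p below 0.05, all of them negative (5.45% of all genes were negative and 9.58% positive at that limit). Without flox MTX replicate 2 the median was 0.28. The smallest adjusted p was that of Igkv6-13, at 0.1792 (log2 difference -8.18, SE 2.52). With all 12 libraries edgeR thus did not show a different effect of MTX in flox and in KO mice for any of the 62 genes, whereas DESeq2 called 4 of 83, all negative (1.18% of all genes were called negative).

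**Figure D5:**
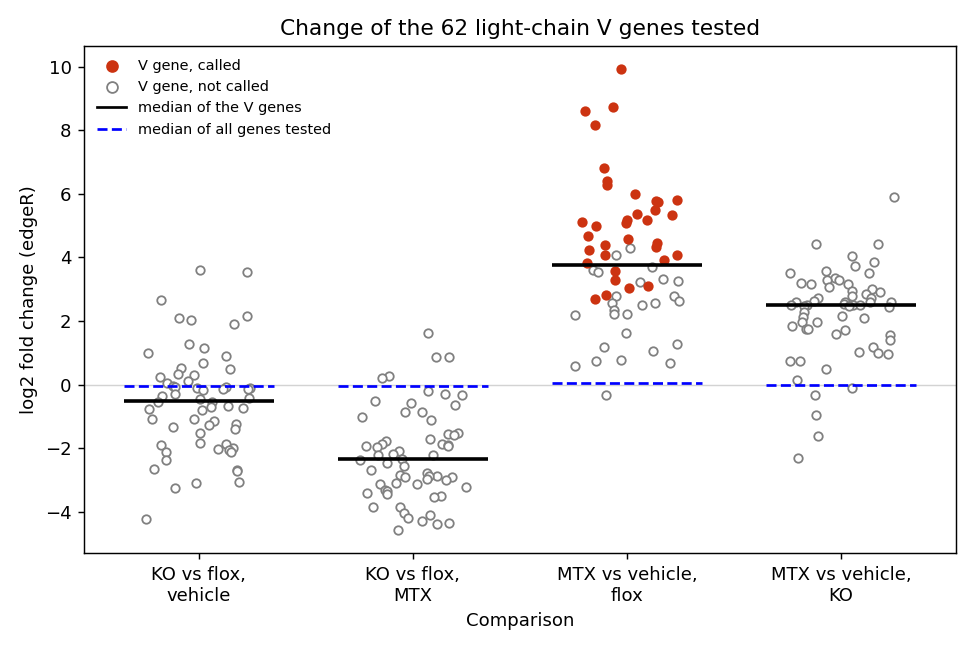
Log2 fold change from edgeR of the 62 light-chain V genes tested in 4 comparisons; each circle is 1 gene, filled where called at an adjusted p below 0.1, with the median of the V genes (solid line) and of all 18702 genes tested (dashed line). Only MTX against vehicle in flox mice has called genes (35), and its V gene median of 3.77 lies above the other 3.

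The other antibody genes and the cell type markers moved as follows in flox MTX against flox vehicle. Of the light-chain constant genes 4 of 4 tested were called higher (median log2 fold change 3.60), with Igkc at 253, 21.5 and 108 CPM in flox vehicle and 234, 3407 and 699 in flox MTX (adjusted p = 0.03781). Of the heavy-chain constant genes 3 of 7 were called higher, of the light-chain joining genes 3 of 4, of the plasma cell markers 6 of 14 (median 1.11) and of the B cell markers 6 of 13 (median 2.40). Jchain, which links antibody units in IgM and IgA, stood at 43.6, 4.09 and 39.0 CPM in flox vehicle and at 92.3, 933 and 352 in flox MTX (log2 fold change 3.99, adjusted p = 0.01691). Mzb1, a chaperone of antibody assembly, had a log2 fold change of 2.62 (adjusted p = 0.09506).

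Markers of other cells moved too. Of the T cell markers 8 of 12 were called higher, and their sum was 16.2 to 28.8 CPM in flox vehicle and 36.2 to 129 in flox MTX. Of the macrophage markers 9 of 10 were called higher, at 315 to 548 and 532 to 2959 CPM. Of the 8 lymph node stroma markers 4 could be tested and 3 were called higher, with the sum at 3.34 to 19.8 and 18.9 to 127 CPM. Ccl21a and Glycam1 were not among the markers tested and had no count in the flox MTX libraries. Glycam1 had 30 counts in KO MTX replicate 3, the KO library with the highest V level, 16 in KO MTX replicate 4 and 5 in flox vehicle replicate 1, and Ccl21a had 3 in KO vehicle replicate 3. Of the epididymis markers 6 of 8 were called lower, at 1461 to 11760 CPM in flox vehicle and 4.64 to 478 in flox MTX. The intestinal epithelium markers, at 67.2 to 284 and 13.6 to 31.3 CPM, had 2 of 6 called lower, Vil1 and Epcam, and no adipocyte marker was called. Of the recombination and surrogate light-chain genes 2 could be tested and 1, Vpreb3, was called higher. The part of these cells in the V gene levels was not tested.

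In KO MTX against KO vehicle no gene of any of these lists was called, with medians of 1.97 for the light-chain constant genes, 2.82 for the heavy-chain constant genes, 1.96 for the B cell markers and 0.31 for the plasma cell markers. In KO vehicle against flox vehicle, 0 of 4 light-chain constant genes and 0 of 13 B cell markers were called. Of the plasma cell markers 4 of 14 were called higher in KO (Sdc1, Prdm1, Tnfrsf13b and Fkbp11), with a median of 0.25 over the 14. Of the T cell markers 3 of 12 and of the macrophage markers 10 of 10 were called higher, and 1 of 4 lymph node stroma markers, Chst4. Of the epididymis markers 6 of 8 were called lower, of the intestinal epithelium markers 3 of 6 and of the adipocyte markers 2 of 10, Cfd and Retn. Rag1 and Rag2, which encode the recombinase that joins V and J genes and mark developing B cells, had at most 4 counts in any library.

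Outside the immunoglobulin loci, 18511 genes were ranked by the Spearman correlation of their CPM with the summed V level over the 12 libraries. The highest was Jchain (rho 0.979), followed by Cxcl13, a chemokine that draws B cells (0.937), and Marco, a scavenger receptor of macrophages (0.937). The libraries of a group share their treatment, and flox MTX replicate 2 was the highest for all 3 genes, so these values are descriptions. Cxcl13 was 10.8, 94.2 and 74.7 CPM in flox MTX and 8.35, 68.2 and 25.1 in KO MTX, and Marco 12.7, 33.6 and 16.1 and 7.53, 11.9 and 9.96. Over the 14 plasma cell markers rho ran from -0.11 for Sdc1, a surface proteoglycan of plasma cells, to that of Jchain, with Mzb1 at 0.720 and 3 markers (Sdc1, Fkbp11 and Creld2) below 0.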

How the data were processed

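RNA of 12 eWAT samples was analysed, 3 mice per group, with groups and replicate numbers from the sample titles. The authors trimmed reads with Trimmomatic 0.36, aligned them with STAR 2.5.2b to GRCm38 and counted them per Ensembl gene (release 79) with featureCounts of Subread 1.5.2. The deposited values are raw counts without normalization. Strand setting and the handling of reads with several matches are not stated, and the methods give ribosomal depletion where the labels give polyA RNA, which could change which V reads were kept.

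Usage is a gene's share of light-chain V counts. Differences were tested with edgeR 4.0.16 in R 4.3.3 (TMM factors, filter by group, 1 coefficient per group over 12 libraries), with limits of 0.1 on the adjusted p and 1.5 on the fold change. The study's methods give these numbers, but their wording can also be read as a log2 fold change of 1.5, which was tried as well. Shares and diversity were not tested. The annotation was GENCODE M21. Named genes are the first per kilobase in each library, the 10 highest per kilobase, all lambda genes, the 3 called genes with the largest change and no overlap, and those at the limit of 20 counts. The genes, lists and tests were chosen with earlier results of these data known. Each count was also made with DESeq2 1.42.0, with RLE factors, with library sizes only, with no filter, at least 10 counts in every library, a replicate block, only the libraries compared, each library left out, and 3 added after seeing the data: genes with 20 counts outside flox MTX replicate 2, an unadjusted p, and the log2 limit. The procedure was tested on simulated counts. The p-values of the main test set a group difference against the spread between mice, estimated for each gene over all 4 groups together.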

Additional observations from a re-analysis of the deposited data

How the results depend on the processing

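The number of genes called in flox MTX against flox vehicle was 35, and 42 with DESeq2 (31 of the 35, with no adjusted p given for the other 4), 35 with RLE factors, 31 with library size alone and 51 of 83 without a filter. Of all genes, 8.09%, 7.23%, 8.06%, 4.1% and 4.8% were called higher in these settings, in the same order. The count was 1 of 2 genes tested with at least 10 counts in every library, which tests few genes. It was 18 of 55 with only the 6 libraries compared, and 15 to 45 with 1 library left out, lowest without flox vehicle replicate 3. Of all genes, 6.74%, 1.5% and 2.03% to 11.3% were called higher in these settings, in the same order. With the replicate number as a block the count was 13, all of them among the 35, where 3.06% of all genes were called higher. The sample titles do not say whether mice with the same replicate number were paired. The correlations of their deviations from the group means had a median of 0.0353 over 12 pairs with the same number. Over 42 other pairs it was 0.0112. Both sets ranged widely, from -0.273 to 0.254 and from -0.379 to 0.454, so these values cannot decide whether mice were paired. For KO against flox under vehicle the count of 0 became 5 with DESeq2 and 2 without a filter. Of all genes, 29.6% and 19.2% were called there. With 1 library left out the count was 0 to 5, where 23.7% to 35% of all genes were called. It was 5 without flox vehicle replicate 3, and 2 each without flox vehicle replicate 4 or flox MTX replicate 1. It was 1 each without flox MTX replicate 2 or 4 or KO MTX replicate 2 or 4. For KO against flox under MTX the count of 0 became 16 with DESeq2 and 6 without a filter. Of all genes, 16.6% and 2.53% were called there. With 1 library left out the count was 0 to 3, where 0% to 20.8% of all genes were called. At an unadjusted p below 0.05 it was 28, against 24.5% of all genes. For MTX in KO mice the count of 0 became 3 with DESeq2, 1 with only the libraries compared and 15 at an unadjusted p below 0.05. Of all genes, 1.39%, 0.0181% and 7.97% passed there, in the same order. The count stayed at 0 with any library left out, where 0% to 1.1% of all genes were called. For the interaction the count of 0 became 4 with DESeq2, against 6.01% of all genes, and 9 at an unadjusted p below 0.05, against 15%. With 1 library left out it was 0 to 2. It was 1 without flox MTX replicate 1, against 1.4% of all genes, and 2 without flox vehicle replicate 4, against 7.07%. The causes were not tested. The replicate block changed no other count of calls. The unadjusted counts, the restriction to genes with 20 counts outside flox MTX replicate 2 and a limit of 1.5 on the log2 scale were chosen after seeing the data. The restriction and the log2 limit each left all 5 counts of called genes as they were.

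The effective number of genes depends on the index. As an inverse Simpson index the means were 14.6 in flox vehicle, 16.6 in KO vehicle, 21.8 in flox MTX and 14.1 in KO MTX, and as the expected number of genes in 181 counts they were 42.2, 42.2, 45.6 and 42.6. With 1 library left out, the entropy-based means ranged over 23.4 to 27.7, 23.6 to 33.3, 32.4 to 38.5 and 21.9 to 31.7 in the same order. Of the named genes, Igkv6-13, Igkv8-30 and Igkv10-96 kept their call in each of the 18 alternatives in which they were tested. Igkv4-79 kept its call in 17, but it was not tested with only the libraries compared, so its call was not checked on the flox libraries alone. None of the 10 called genes named changed direction. Depth limits what can be said of flox vehicle replicate 3, with 181 V counts.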
